A study of Schizosaccharomyces pombe with 6 samples.

Results

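Adjacent pairs are 2 AseI restriction fragments that lie next to each other on a nuclear chromosome of *Schizosaccharomyces pombe* and share the AseI site at which they were cut apart. They were taken from the interactions captured by Genome Conformation Capture (GCC), in which cross-linked chromatin is digested with AseI, ligated and sequenced from both ends. Each pair with a count was used once, and it was called adjacent when the numbers of its fragments along the genome differed by exactly 1 and both fragments lay on the same chromosome. Of 9825 adjacent pairs in the digest, 2865 had at least 1 count in G1, G2 or M phase, out of 164220 nuclear pairs with a count in any phase. The rule used no count beyond being listed.

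Cells were h- leu1 strains that each carry a temperature-sensitive cell cycle mutation, cdc10-129 for G1 phase (MY291), cdc25-22 for G2 phase (MY284) and nuc2-663 for the anaphase block here called M phase (MY286). All strains were grown at 26°C and held at 36°C for 4 h, so the heat is shared by all 3 groups and no unarrested culture was compared. The 6 libraries were 2 biological replicates for each phase, and the counts used here pool both replicates into 1 table for each phase. No spread between replicates can therefore be given, no test between phases was made, and phase, strain and library preparation cannot be told apart. Values of the 3 phases are given in the order G1, G2, M throughout. Intervals in brackets are Wilson 95% intervals for counting error alone, since replicates are pooled. PCR duplicates were not removed by a molecular identifier, so counts may not be independent and the intervals may be too narrow. Nuclear counts numbered 2080319, 2235245 and 2135885.

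AseI recognizes ATTAAT and cuts after the second base. When 2 neighbouring fragments are ligated back at the site that was cut, the genomic sequence is restored, so a count of an adjacent pair can come from such a religation, from DNA that was never cut or from a contact in the nucleus, and the counts do not separate these. The regions in which most adjacent counts lay are the repeated parts of the genome. Fission yeast centromeres have a central core (cnt) that carries the kinetochore, flanked by inverted inner repeats (imr) and by outer dg and dh repeats that form heterochromatin. The ribosomal RNA genes lie in tandem arrays at both ends of chromosome III, the ends of chromosomes I and II carry subtelomeric duplications, and long terminal repeats (LTRs) are the remains of Tf retrotransposons scattered along the arms.

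The following sequences show the sites on which the results turn, read on the plus strand of the RefSeq genome ASM294v3 at positions where it is unshifted from the deposited tables. The first pair shows why a read end at some adjacent sites fits at more than 1 place: the site in the repeat annotated imr2r, chrII:1617514-1617563, and the site in imr2L, chrII:1630852-1630901, are the same 50 bases read on opposite strands, with 50 of 50 bases identical. Capitals mark the AseI site. 
imr2 site 1: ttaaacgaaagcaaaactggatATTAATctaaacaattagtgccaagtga
imr2 site 2: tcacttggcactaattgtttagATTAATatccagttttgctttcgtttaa
Capitals again mark the AseI site in the next 4 sequences. The first lies between the 8386 bp and the 1254 bp fragment of the rDNA unit outside the annotated rRNA genes (chrIII:10002-10051), the second between the 1254 bp and the 104 bp fragment inside the 18S rRNA gene SPRRNA.43 (chrIII:11256-11305). The third lies in the coding exon of rpn501 (chrI:1266621-1266670), a gene with a second copy on the same chromosome, and the fourth in the coding exon of gsf2 (chrIII:960540-960589), the site with the most counts among those with no long repeat at the cut.
rDNA outside the rRNA genes: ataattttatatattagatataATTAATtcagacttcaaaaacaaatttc
rDNA inside the 18S gene: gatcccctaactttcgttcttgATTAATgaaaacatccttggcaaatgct
rpn501: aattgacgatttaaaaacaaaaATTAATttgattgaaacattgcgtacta
gsf2: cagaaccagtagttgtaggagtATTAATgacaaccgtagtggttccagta
The last 4 show repeats too short to make a fragment a repeat, with capitals for the stretch counted from the cut that occurs a second time in the genome. The coding exons of rpl1701 (chrII:1733855-1733914) and rpl1702 (chrIII:482670-482729) share 37 bases after the cut. The coding exon of mug176 (chrII:1858502-1858551) shares 19 bases after the cut with a place on chromosome I (chrI:1810057-1810125) that has no AseI site.
rpl1701: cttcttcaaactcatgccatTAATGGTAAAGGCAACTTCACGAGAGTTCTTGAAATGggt
rpl1702: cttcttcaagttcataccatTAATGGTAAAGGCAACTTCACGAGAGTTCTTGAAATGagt
mug176: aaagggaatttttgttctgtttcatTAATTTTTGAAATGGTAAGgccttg
place that shares the mug176 stretch: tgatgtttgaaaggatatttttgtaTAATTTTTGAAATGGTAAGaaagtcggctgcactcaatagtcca

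Adjacent pairs held 23459, 38664 and 16251 counts. These were 1.13% (1.11 to 1.14), 1.73% (1.71 to 1.75) and 0.761% (0.749 to 0.773) of all nuclear counts. The share was highest in G2 phase and lowest in M phase. The intervals hold no spread between replicates, so they do not decide whether phases differ. Of the 9825 adjacent pairs, 1268 (12.9%), 2305 (23.5%) and 1280 (13%) had a count in G1, G2 and M phase. Only 641 pairs were listed in all 3 phases, 22.4% of the pairs with a count, but they held 73815 of the 78374 adjacent counts. By contrast 1024 pairs were listed in G2 phase alone, with 1603 counts. The same overlap is not given for non-adjacent pairs, so neither number is shown to be particular to adjacent pairs. The cut-off of 3 counts that the study applied to its interactions was reached by 497, 824 and 464 adjacent pairs. These are 39.2%, 35.7% and 36.2% of the listed adjacent pairs, against 17.9%, 19.3% and 16.2% of the listed non-adjacent nuclear pairs. Most listed adjacent pairs were far below the leading ones. The median count was 2, 2 and 1 and the highest 296, 448 and 336, and the 10 highest pairs held 11.6%, 9.39% and 15.3% of the adjacent counts.

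Most adjacent counts lay at repeated sequence, although most of the listed adjacent pairs joined 2 repeat-free fragments. A fragment counted as repeat-free if no stretch of 50 bp within it has a second match in the nuclear genome, whichever strand is read. Only 371 adjacent pairs (3.78%) join 2 fragments with repeated sequence, yet they held 90.1% (89.7 to 90.5), 86% (85.7 to 86.3) and 87.7% (87.2 to 88.2) of the adjacent counts. Of these 371 pairs, 353 (95.1%) were listed in each phase, with a mean of 57, 89.6 and 38.4 counts per pair. Pairs of 2 repeat-free fragments were 7621 in number (77.6%) and held 4.07%, 7.48% and 5.43% of the adjacent counts. Among them 674, 1538 and 674 pairs were listed (8.84%, 20.2% and 8.84%), with a mean of 0.125, 0.38 and 0.116 counts per pair. The 602 pairs that join a repeat-free to a repeated fragment lay between, with a mean of 1.5, 2.29 and 1.1 counts, and so did the 1231 pairs with a fragment under 50 bp, with 0.383, 0.924 and 0.369. Of all nuclear counts, only 0.168%, 0.484% and 0.186% joined 2 repeat-free fragments, less than the 4.07%, 7.48% and 5.43% of the adjacent counts. Concentration at repeated sequence was thus not particular to adjacent pairs.

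**Figure D1:**
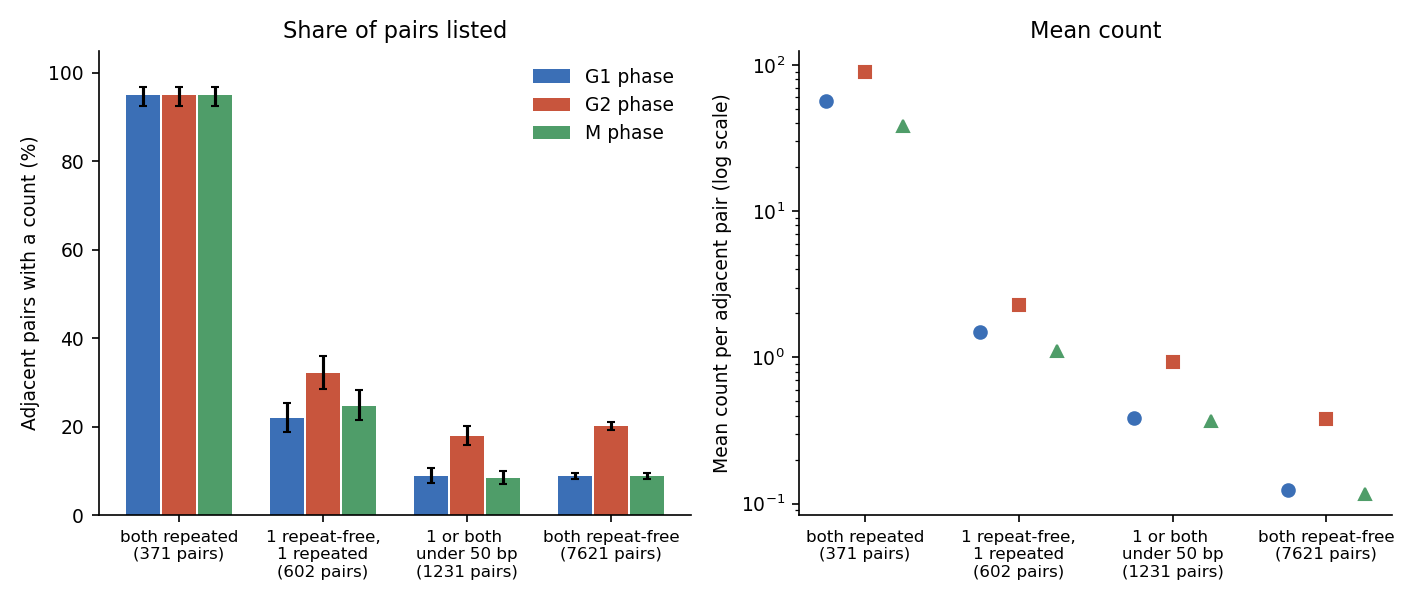
Adjacent pairs in 4 classes of repeated sequence. Left, share of pairs with a count in percent, with Wilson 95% intervals (counting error only). Right, mean count per adjacent pair on a log scale, without error because replicates are pooled. Pairs of 2 repeated fragments were listed at 95.1% in every phase, pairs of 2 repeat-free fragments at 8.84%, 20.2% and 8.84%.

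Between repeat-free fragments adjacent pairs held a minority of the counts but a far larger share than over all nuclear pairs. Repeat-free fragments were joined to each other by 3492, 10816 and 3977 counts, which is 0.168%, 0.484% and 0.186% of the nuclear counts. Of these, 955 (27.3%, 25.9 to 28.9), 2893 (26.7%, 25.9 to 27.6) and 883 (22.2%, 20.9 to 23.5) were adjacent. Within repeat-free fragments the adjacent share was therefore close in G1 and G2 phase and lowest in M phase. The number of repeat-free pairs with a count fell steeply with separation: 1538 of 7621 pairs at neighbouring fragments in G2 phase, 121 of 7550 (1.6%) at fragments 2 apart, 12 of 7518 (0.16%) at 3 apart and 1 of 7499 at 4 apart. The same fall was seen in G1 phase (674, 44, 8 and 0 pairs) and in M phase (674, 51, 13 and 6 pairs). A count of 0 allows up to 3 counts.

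Whether a repeat-free pair was listed varied with a short repeat at its own cut. For each site the longest stretch was measured that starts at the cut, runs into the left or into the right fragment and occurs elsewhere in the nuclear genome. The longer of the 2 sides was 14 bases or less at 5547 repeat-free pairs, of which 180, 460 and 207 (3.24%, 8.29% and 3.73%) were listed in G1, G2 and M phase. It was 15 bases or more at 2074 pairs (27.2%), of which 494, 1078 and 467 (23.8%, 52% and 22.5%) were listed. In G2 phase the share of listed pairs was 3.02% (2.05 to 4.42) at 12 bases, 7.4% (6.39 to 8.55) at 13 bases and 11.1% (9.88 to 12.4) at 14 bases. It was 44% (41.3 to 46.7) at 15 bases, 58.5% (54.1 to 62.8) at 16 bases and 73.1% (66.1 to 79.2) at 17 bases. The step between 14 and 15 bases was present in each phase, from 4.83% to 18.6% in G1 phase and from 4.37% to 17.3% in M phase. Over all adjacent pairs, the 3103 pairs (31.6%) with 15 or more repeated bases at the cut held 94.4%, 94.6% and 93.3% of the adjacent counts.

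**Figure D2:**
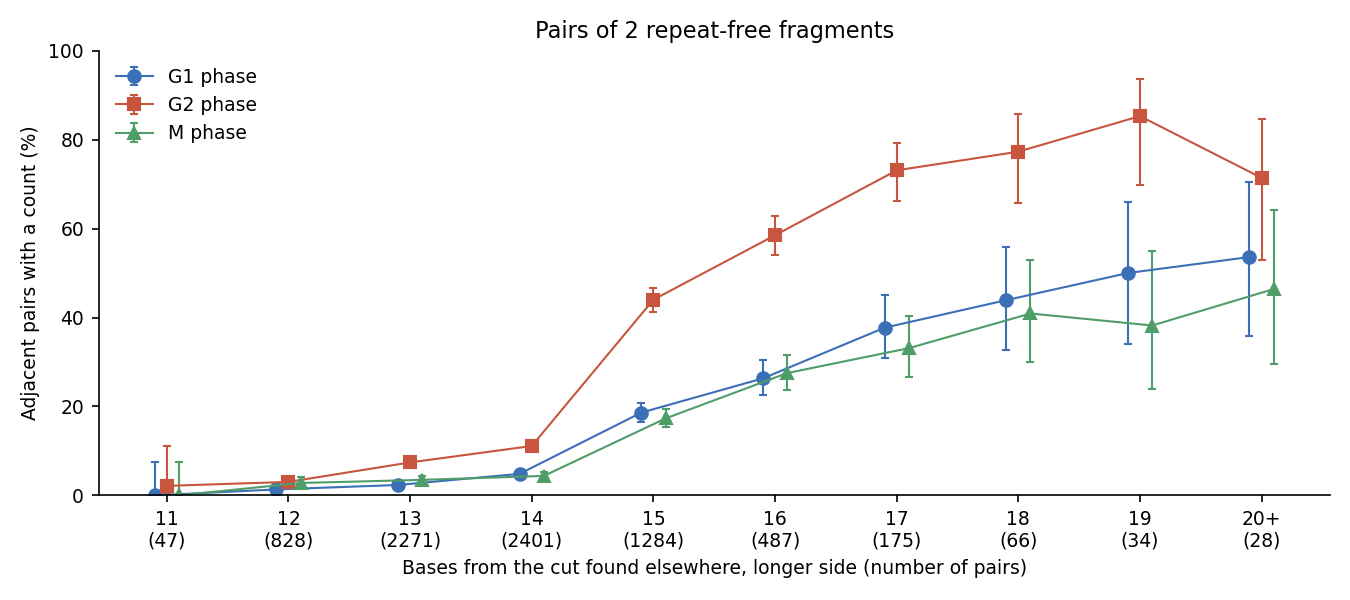
Share of repeat-free adjacent pairs with a count (percent, Wilson 95% intervals for counting error) against the number of bases from the cut that occur elsewhere, taking the longer side; the number of pairs is in brackets. In each phase the share rises between 14 and 15 bases, in G2 phase from 11.1% to 44%.

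Where such a stretch has exactly 1 other place in the genome, the neighbouring fragment was listed with the fragment that holds the other place in nearly the same numbers as with its true neighbour. In this comparison the other side of the cut had under 15 repeated bases. For 694 stretches on the left of the cut, counts to the true neighbour numbered 289, 835 and 271 and counts to the other place 255, 751 and 212. The true neighbour thus held 53.1% (48.9 to 57.3), 52.6% (50.2 to 55.1) and 56.1% (51.7 to 60.5) of them. For 729 stretches on the right, the counts were 196, 605 and 174 to the true neighbour and 267, 663 and 203 to the other place, so the true neighbour held 42.3%, 47.7% and 46.2%. At stretches of exactly 14 bases the 2 sides of the cut differed. On the left, 34, 86 and 29 adjacent counts stood beside 23, 73 and 28 to the other place, over 705 stretches. On the right, 39, 101 and 32 stood beside 0, 1 and 0, over 835 stretches.

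The mug176 site (chromosome II, position 1858527), in a gene named for its rise in meiosis, shows this for 1 site. Its adjacent pair had 3, 19 and 3 counts, highest in G2 phase. The left fragment was listed with the fragment on chromosome I that shares the 19 bases (positions 1810082 to 1810100) at 8, 17 and 2 counts, although that place is not at an AseI cut. The rpl1701 and rpl1702 genes, which encode a protein of the large ribosomal subunit, show it for a pair of sites. Adjacent counts numbered 24, 17 and 11 at rpl1701 (chromosome II, 1733875) and 7, 7 and 11 at rpl1702 (chromosome III, 482690). The left fragment of rpl1701 with the right fragment of rpl1702, on another chromosome, had 27, 28 and 10 counts, and the reverse combination 12, 12 and 13. The left fragments, which share no long stretch, had 0 counts with each other in every phase. The right fragments, which share the 37 bases, had 24, 24 and 16 counts with each other. At both genes the counts with the copy on the other chromosome were thus as high as the adjacent counts or higher in all but 1 comparison, rpl1701 in M phase with 11 adjacent against 10.

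Longer duplications had higher counts with a like split. Sites were grouped when the fragments that share a 50 bp stretch with the left and with the right fragment are themselves neighbours at other sites, which gave 34 groups with 86 of the 371 repeated pairs. In the 26 groups with 2 copies, the adjacent pairs held 4502, 6915 and 2713 counts, and the combinations of a left fragment with the right fragment of the other copy held 4496, 7081 and 2789. Adjacent pairs therefore had 50% (49 to 51.1), 49.4% (48.6 to 50.2) and 49.3% (48 to 50.6) of these counts, where an even spread over all combinations gives 50%. Within single groups the adjacent share ranged from 36.4% to 60% for G1, 44.7% to 53.6% for G2 and 35.9% to 61.7% for M phase. In the 5 groups with 4 copies the adjacent share was 26%, 25% and 24.7%, against 25% for an even spread. For the 5 copies of the 104 bp and 1126 bp rDNA fragments it was 19.5%, 20.6% and 21%, against 20%. The group with 6 copies lay lower in G1 phase, at 12.9% (10.7 to 15.5), 16.6% and 17.5%, against 16.7%. An adjacent pair in these groups was thus listed about as often as the same junction put together across copies, which were on another chromosome for 1454, 2245 and 855 of the cross-copy counts of the groups with 2 copies. How the pipeline places an end that fits several places is not given in the sources used here, and its part in the counts was not tested.

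**Figure D3:**
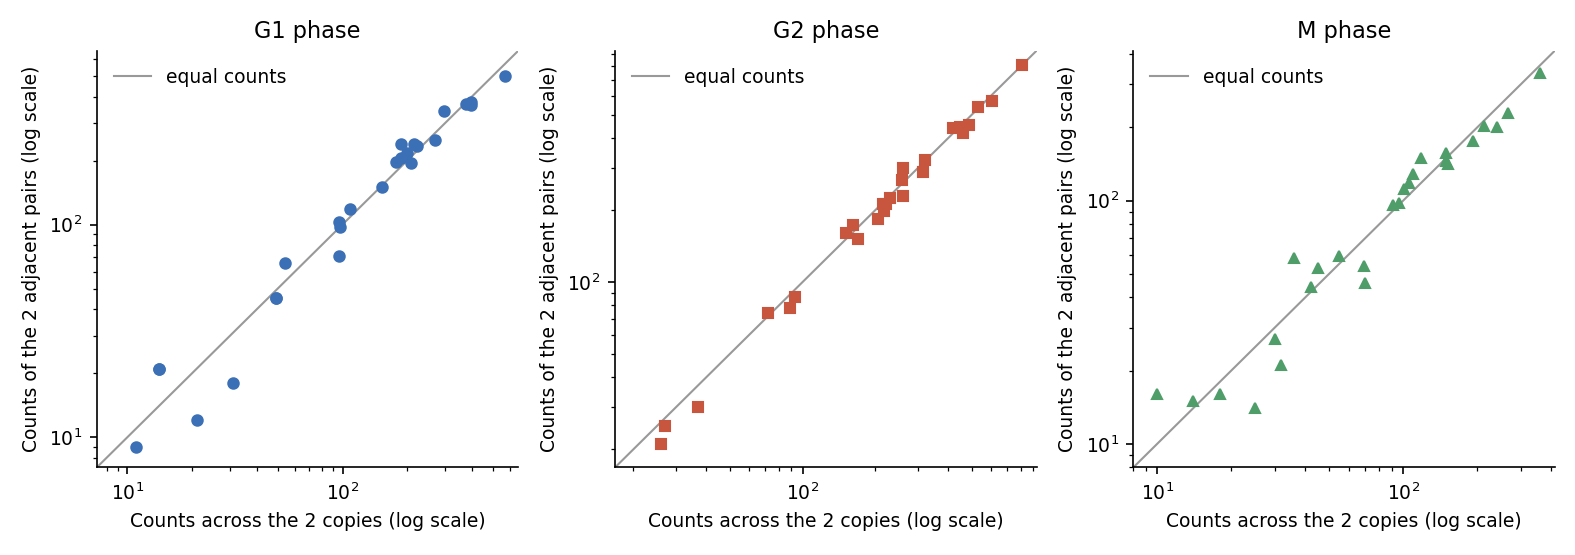
The 26 groups of 2 copies. Each point is 1 group: summed counts of its 2 adjacent pairs against summed counts of the 2 cross-copy combinations, both on log scales, 1 panel for each phase, with the line of equal counts. Points lie along the line over the whole range.

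Several genes with a second copy had high adjacent counts in coding exons, but not all did. The copies SPAC1399.02 (chromosome I, 1847143, coding exon) and SPAC3H1.06C (chromosome I, 1942039, coding exon) had only 7, 11 and 10 and 5, 14 and 11 counts. The duplicated block on chromosome I holds rpn501 and rpn502, which encode a subunit of the 19S regulatory particle of the proteasome, and cox1101 and cox1102, for assembly of cytochrome c oxidase. The pair at rpn501 (position 1266645, coding exon) had 179, 205 and 61 counts and the pair at rpn502 (position 4904348, coding exon) 163, 214 and 57. The cross-copy combinations had 152, 239 and 56 and 145, 220 and 50. The pairs at cox1101 (position 1269839, coding exon) and cox1102 (position 4901154, coding exon) had 90, 168 and 40 counts and 60, 155 and 56. In these 4 pairs G2 phase was highest and M phase lowest. A further site of both rpn genes differed between the copies, with 84, 122 and 74 counts at rpn501 (position 1267149, coding exon) and 112, 102 and 83 at rpn502 (position 4903844, coding exon), where G1 phase was highest. The hexose transporter genes ght3 (chromosome I, 83865, coding exon) and ght4 (chromosome II, 158484, coding exon) share a site near the chromosome ends, with 119, 161 and 61 counts at ght3 and 120, 140 and 51 at ght4.

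By location, adjacent counts were concentrated at centromeres and ends relative to the share of pairs. The same shares of non-adjacent counts are not given, here or for chromosomes, annotation classes and the place of the site. None of these patterns is therefore shown to be particular to adjacent pairs. The 125 pairs of the 3 centromeres (1.27% of pairs) held 19.3% (18.8 to 19.8), 25.2% (24.8 to 25.6) and 18.4% (17.9 to 19.1) of the adjacent counts. The 532 pairs in the outer 100 kb of the chromosomes (5.41% of pairs) held 49.3%, 41.2% and 51.5%, and the 9168 pairs of the arms (93.3%) held 31.4%, 33.6% and 30.1%. By chromosome, the shares in G1, G2 and M phase were 35.2%, 34.7% and 31.6% for chromosome I, with 44.6% of the pairs, and 20.1%, 23.1% and 19.1% for chromosome II, with 36.9%. Chromosome III, with 18.5% of the pairs, held 44.7%, 42.2% and 49.3%. Among pairs of 2 repeat-free fragments the chromosomes differed little: 8.3%, 19.8% and 8.18% of them were listed on chromosome I, 9.46%, 20.3% and 9.14% on chromosome II and 8.97%, 21.1% and 9.98% on chromosome III. The high share of chromosome III thus lay outside its repeat-free pairs.

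By annotation, a pair was put in a class when either fragment carries it, so a pair can be in several. The 89 rRNA pairs (0.906% of pairs) held 16.8%, 12.2% and 22.5% of the adjacent counts, with 21 of them in the rDNA arrays. The 476 LTR pairs (4.84%) held 21.7%, 19.2% and 20.6%, and the 266 tRNA pairs (2.71%) held 10.4%, 12.3% and 9.97%. The 5348 CDS pairs (54.4%) held 28.7%, 28.2% and 27.3%, and the 6095 misc_feature pairs (62%) held 61%, 63.4% and 56.2%. The rRNA, LTR and tRNA classes thus held more than their share of pairs and the CDS class less. On the arms this held in all 3 phases for the LTR class alone of the former. There, 390 LTR pairs (3.97% of pairs) held 10.9%, 9.83% and 10.4%. The 68 rRNA pairs of the arms (0.692%) held 0.533%, 0.484% and 0.498%, below their share. The 226 tRNA pairs of the arms (2.3%) held 2.45%, 2.62% and 2.16%, close to their share, above it in G1 and G2 phase and below it in M phase. Once only repeat-free pairs were taken, 8.61%, 19.7% and 8.84% of 4377 CDS pairs were listed and 10.2%, 29.9% and 11.7% of 137 LTR pairs. The interval of the LTR pairs in G2 phase (22.9 to 38.1) lay above that of the CDS pairs (18.6 to 20.9), whereas in G1 and M phase the intervals overlapped.

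The place of the site itself was read from the RefSeq annotation. Sites between genes (1701 pairs, 17.3%) held 45.7%, 47.6% and 43.6% of the adjacent counts, and sites in noncoding RNA genes or pseudogenes (1531 pairs, 15.6%) held 27.7%, 27.1% and 32.8%. Sites in coding exons (3342 pairs, 34%) held 16.5%, 14.2% and 13.5%, sites in untranslated exons (2783 pairs, 28.3%) 7.03%, 7.84% and 7.4%, and sites in introns (468 pairs, 4.76%) 3.08%, 3.28% and 2.63%. Among repeat-free pairs the 5 places were listed at 8.15% to 9.1% in G1 phase. In G2 phase coding exons, at 16.8% (15.5 to 18.2), lay below untranslated exons at 23.2% (21.5 to 25), introns at 22.1%, noncoding genes at 21% and sites between genes at 21.6%. A stretch of 15 or more repeated bases at the cut was present at 547 of 2928 coding sites and at 377 of 1040 sites between genes. Among sites with such a stretch, coding exons were listed at 58% (53.8 to 62) in G2 phase and untranslated exons at 52.3%. Introns were at 58.9%, noncoding genes at 48.8% and sites between genes at 43.2% (38.3 to 48.3). At 14 bases or less the shares were 7.39%, 9.44%, 5.47%, 8.98% and 9.35% in the same order.

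Fragment length had little rank correlation with adjacent counts, although the mean count differed between length bins. The rank correlation of the count with the length of the shorter fragment over all 9825 pairs was 0.029, 0.019 and 0.036, and over the repeat-free pairs 0.011, -0.014 and 0.016. The points of a phase share 1 table, and fragments belong to 2 pairs each. Repeat-free pairs whose shorter fragment is 100 bp or less were listed at 7.17%, 20.5% and 5.86%, and those from 801 to 1600 bp at 9.49%, 19.9% and 9.49%. Over all pairs, repeated ones included, the mean count was 0.741, 1.56 and 0.56 where the shorter fragment is 100 bp or less. It was 5, 7.29 and 3.53 from 101 to 200 bp and 0.104, 0.323 and 0.0521 above 3200 bp (96 pairs). The median fragment is 822 bp long, and the longest 17771 bp. Of 9828 fragments, 364 were in no listed pair of any kind, 324 of them under 50 bp.

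At the centromeres the adjacent counts differed between the 3 cores. The cores cnt1 and cnt3, which share most of their sequence, had adjacent pairs with a median of 56, 126 and 44 counts (7 pairs) and 50, 130.0 and 35 counts (9 pairs). The 9 pairs of cnt2, whose sequence is mostly its own, had a median of 0 in every phase, with 1, 3 and 2 pairs listed and nearly all counts at 1 pair (52, 107 and 29). The inner repeats of the same centromere carried the highest pairs of any centromere. The pair at site 1 of imr2 (position 1617538) had 185, 393 and 118 counts and the pair at site 2 (position 1630876) 181, 413 and 112. Their cross-copy combinations had 197, 395 and 135 and 200, 411 and 131. The 695 bp fragment beside the site was listed with its own copy far more often, at 3818, 4466 and 3988 counts, and the 131 bp fragment on the other side less often, at 45, 152 and 36. Of the pairs in cnt1 and cnt3, 6 of 7 and 6 of 9 have 50 repeated bases on both sides of the cut, and of those in cnt2 0 of 9. Over each centromere, counts in G2 phase were the highest: 1057, 2316 and 754 at centromere I, 1432, 2995 and 953 at centromere II and 2043, 4427 and 1291 at centromere III. In frequency, the counts per 1000000 nuclear counts, G2 phase was 1.95 to 2.04 times G1 phase and 2.94 to 3.28 times M phase.

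**Figure D4:**
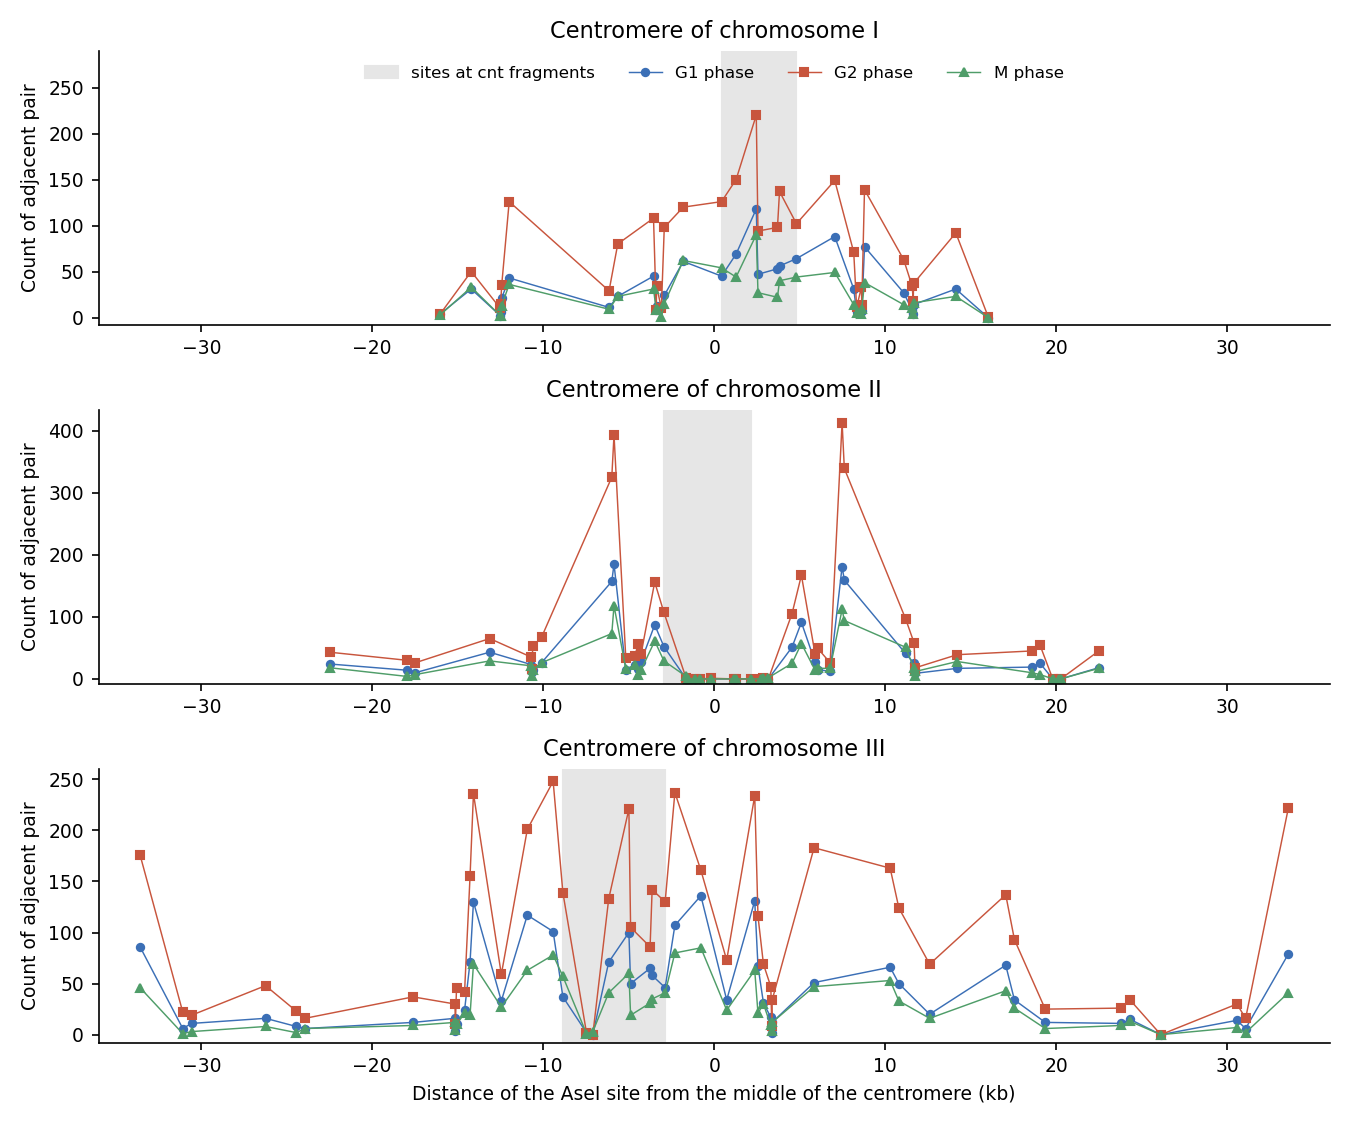
Counts of the adjacent pairs of each centromere (vertical axis) against the distance of the AseI site from the middle of the annotated centromere in kb; each point is 1 pair in 1 phase and the shading spans sites at fragments annotated cnt. G2 phase lies highest at most sites, and the shaded core of centromere II lies at or near 0 between the peaks of its inner repeats.

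The tandem rDNA arrays split into sites of opposite phase pattern. The 21 adjacent pairs of the rDNA fragments had 3809, 4544 and 3571 counts, the smallest difference between phases of any element (the frequency in G2 phase was 1.11 times that in G1 phase and 1.22 times that in M phase). The 10 sites inside an 18S rRNA gene, the RNA of the small ribosomal subunit, had 2037, 1857 and 2297 counts. The frequencies were 979, 831 and 1075, lowest in G2 phase, and G2 phase was below M phase at 10 of 10 sites (0.597 to 0.852 times) and below G1 phase at 8. The 11 sites outside the annotated rRNA genes had 1772, 2687 and 1274 counts. The frequencies were 852, 1202 and 596, highest in G2 phase, and G2 phase was above M phase at 11 of 11 sites (1.48 to 2.59 times) and above G1 phase at 9. This split by gene was chosen after the values were seen, and the sites are copies of a few sequences, not independent points.

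The 3 sites between the 8386 bp and 1254 bp fragments, outside the rRNA genes, were high in G2 phase. At position 10026 of chromosome III the counts were 257, 448 and 170, at 20896 they were 264, 435 and 182, and at 2443227, in the array at the other end, 295, 384 and 213. The former 2 are the highest adjacent pairs of the genome in G2 phase. The 3 sites between the 1254 bp and 104 bp fragments, inside the 18S genes, were lowest in G2 phase. The counts were 263, 235 and 336 at position 11280 (SPRRNA.43), 264, 254 and 293 at 22150 (SPRRNA.44) and 285, 232 and 304 at 2441973 (SPRRNA.46). These sites share the 1254 bp fragment with the former, so pairs on its 2 sides changed in opposite directions between G2 and M phase.

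**Figure D5:**
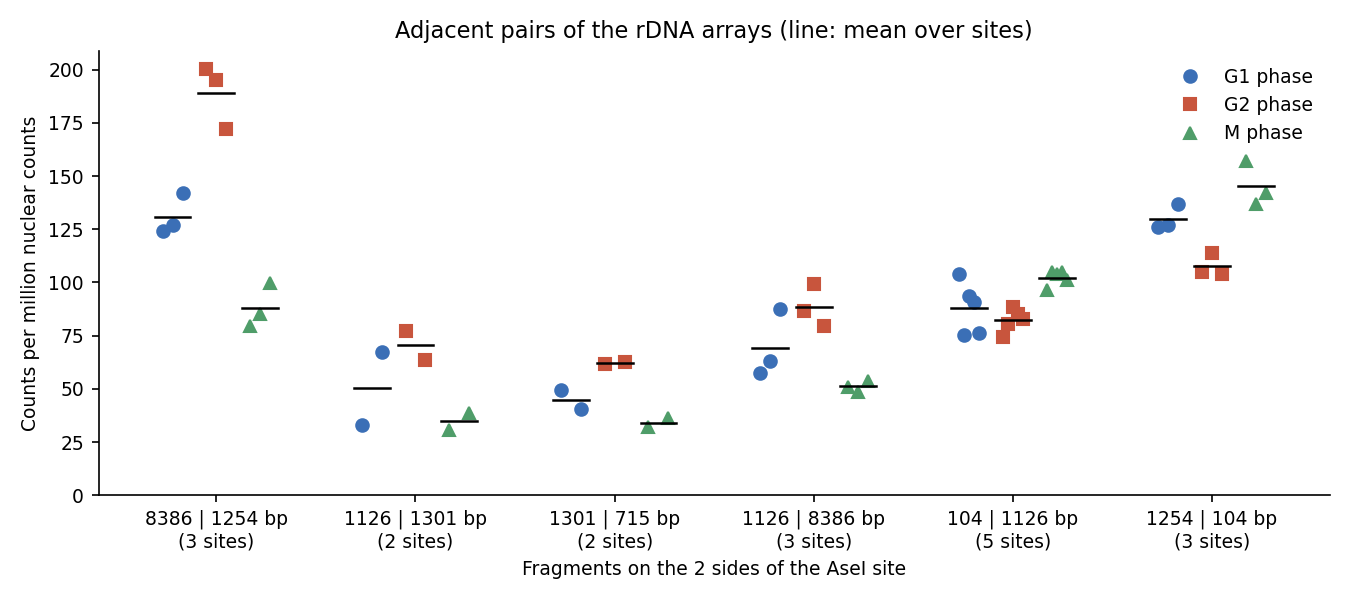
Adjacent pairs of the rDNA arrays, grouped by the lengths of the fragments on the 2 sides of the site (right-end fragments within 1% of a left-end length share its name); each point is 1 site, as frequency in counts per 1000000 nuclear counts, with the mean as a line, and 3 sites of other lengths are not drawn. The 8386 and 1254 bp sites are highest in G2 phase, whereas the 104 and 1126 bp and the 1254 and 104 bp sites, inside 18S genes, are on average highest in M phase.

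Outside the rDNA, the ends of the chromosomes held 7759, 11389 and 4797 counts in 511 pairs, 33.1%, 29.5% and 29.5% of the adjacent counts. The highest was at position 9713 of chromosome I, between genes, with 296, 302 and 121 counts, followed by 254, 273 and 191 counts at position 5571288, also between genes. The latter is a copy of the site at 10283, with 245, 269 and 145 counts, from the other end of the chromosome. At these sites G1 and G2 phase were alike and M phase was lower. The 390 LTR pairs of the arms held 2551, 3800 and 1686 counts, of which 2414, 3497 and 1524 lay in the 79 pairs whose fragments are both repeated. In both elements G2 phase was the highest and M phase the lowest, at 1.37 and 1.39 times G1 phase and 2.27 and 2.15 times M phase in frequency for the ends and the LTR pairs.

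A few pairs had many counts with no repeat at the cut. Among the 19 pairs of 2 repeated fragments with 14 or fewer repeated bases on both sides, the highest was at gsf2 (chromosome III, position 960564, coding exon), a gene for a cell surface flocculin. It had 246, 126 and 190 counts, lowest in G2 phase, the reverse of most pairs. The repeats of its fragments, 29% of the left and 57.4% of the right one, lie within each fragment, and neither shares a 50 bp stretch with another fragment. The pair at position 2433485 of chromosome III (untranslated exon) had 142, 172 and 122 counts, and that at 1649053 (untranslated exon) 102, 107 and 97. No other pair with 14 or fewer repeated bases on both sides, of any class, had more than 69 counts in G1 phase. The 5547 repeat-free pairs with 14 or fewer repeated bases at the cut did not exceed 4, 9 and 7 counts.

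Single pairs were compared between phases where their counts over both phases reached 20, and a pair was set aside as differing at a ratio of at least 2 in frequency. With 1 pooled table for each phase this is a description and no test. The minimum left mainly repeated sequence. Pairs of 2 repeated fragments were 324 of 381 for G1 against G2 phase, 324 of 373 for G2 against M phase and 300 of 338 for G1 against M phase. Only 4, 2 and 1 pairs joined 2 repeat-free fragments. Copies of the same junction were counted as separate pairs, so the pairs are not independent. Between G1 and G2 phase, 122 of 381 adjacent pairs (32%) were higher in G2 phase, against 9.53% of all non-adjacent pairs past the same minimum. Only 4 (1.05%) were higher in G1 phase, against 10.4%. Between G2 and M phase, 268 of 373 (71.8%) were higher in G2 phase, against 23.6%, and 1 (0.268%) higher in M phase, against 21.7%. Between G1 and M phase, 91 of 338 (26.9%) were higher in G1 phase, against 11.3%, and 3 (0.888%) higher in M phase, against 6.64%. The median ratio of G1 to G2 phase was 0.602, that of G2 to M phase 2.68 and that of G1 to M phase 1.58, against 1.06, 0.956 and 1.02 over the non-adjacent pairs. The medians were thus shifted for adjacent pairs and close to 1 for non-adjacent ones. Relative to the adjacent counts of each phase instead, 27 pairs (7.09%) were higher in G2 phase against 14 (3.67%) in G1 phase. Against M phase, 47 (12.6%) were higher in G2 phase and 27 (7.24%) in M phase. Between G1 and M phase, 16 (4.73%) were higher in G1 phase and 9 (2.66%) in M phase. The non-adjacent shares on this scale, in the same order, were 2.24% and 34.6%, 5.86% and 58.9%, and 3.29% and 24.9%.

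The pairs with the largest ratios lay in all 3 locations, and all but gsf2 had under 50 counts in each phase. In favor of G2 phase over G1 phase they were position 43368 of chromosome I (between genes) with 5, 46 and 10 counts, mug176 with 3, 19 and 3, and position 20423 of chromosome I (between genes) with 9, 44 and 11. In favor of G2 over M phase they were position 1074276 in the centromere of chromosome III with 6, 22 and 1 counts, position 5559648 of chromosome I (noncoding RNA gene SPNCRNA.4505) with 14, 26 and 2, and position 92992 of chromosome II (between genes) with 23, 36 and 3. In favor of G1 over M phase they were position 92992 again, position 3165577 of chromosome I (counts below) and wtf10. The site at wtf10 (chromosome III, 615560, untranslated exon), a member of the wtf family of meiotic drivers, had 23, 37 and 5 counts. In favor of G1 over G2 phase they were gsf2, position 3165577 of chromosome I (SPNCRNA.218, beside a 5S rRNA gene) with 17, 7 and 3 counts, and position 2452862 at the end of chromosome III (18S gene SPRRNA.45) with 19, 10 and 16. In favor of M phase over G1 phase they were all on the arms and between genes. Position 1826616 of chromosome II had 5, 12 and 17 counts, position 381632 of chromosome III 11, 11 and 26, and position 702204 of chromosome III 16, 23 and 34. Position 381632 was also the 1 pair higher in M phase than in G2 phase.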

How the data were processed

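Nuclear interactions of G1, G2 and M phase cultures were analysed from GCC libraries. The authors positioned 50 bp paired ends, and single ends holding an AseI site, without mismatches with the Topography suite (SOAP) on the build ASM294v2. The deposited counts give the sequenced ligations between fragments, unnormalized and pooled over 2 replicates, and ends on repeated sequence are included. A further table of each phase, named in the labels, was not used here. Pairs listed in both directions were used once. Fragments were matched by their AseI ends to ASM294v3, with identical positions for chromosomes II, III and part of I, where sequences were read. Coordinates are those of the tables. Repeats were exact 50 bp stretches found elsewhere on either strand. The stretch at the cut was measured from 9 to 50 bases. Pairs named were the 10 of highest mean frequency, the 3 highest of each class and location and of the repeat-free pairs, and the 3 of largest ratio in each direction; mug176 and rpl17 copies, duplicated genes and the split of the rDNA sites were detailed after their values were seen. Members and lists were chosen with earlier results of these data known. Shares have Wilson intervals at the 95% level. Steps were checked on simulated data. Python 3.11.15, pandas 2.3.3 and scipy 1.17.1 were used. Alternatives were the denominator, cut-offs, class and end definitions, scaling, minimum counts, length measure and, chosen after seeing the data, repeat and stretch length.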

Additional observations from a re-analysis of the deposited data

Results flagged for a closer look

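Counts outside the adjacent nuclear pairs differed between phases in 2 places, neither of which entered the comparisons above. Counts of an AseI fragment with itself numbered 20, 9 and 372 for G1, G2 and M phase, in 20, 7 and 153 pairs. The largest was 1, 3 and 34 counts. Counts between neighbouring mitochondrial fragments numbered 148, 104 and 465, at 7, 7 and 14 of 37 possible pairs, and made up 86.5%, 74.8% and 61.1% of the counts within the mitochondrial genome. As raw counts both were highest in M phase, where the adjacent nuclear counts were lowest. All counts within the mitochondrial genome were also highest in M phase, at 171, 139 and 761. As a share of them, the counts between mitochondrial neighbours were lowest in M phase, as was the adjacent share of nuclear counts. Each value comes from 1 pooled table, and the differences were not tested.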

How the results depend on the processing

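No paired analysis was possible because both replicates of a phase are pooled in the deposited counts, and the replicates could not be left out in turn for the same reason. Of 68 values recomputed under another setting, 63 moved past their interval or by over 1.5 times, and of 12 under settings chosen after seeing the data 9 did. Values are given in the order G1, G2 and M phase. The adjacent share of nuclear counts was 1.66%, 2.57% and 1.12% within chromosomes, 1.61%, 2.41% and 0.985% without rDNA fragments, 1.64%, 2.41% and 1.12% without the 10 largest non-adjacent pairs, and 27.3%, 26.7% and 22.2% over repeat-free pairs, where G1 phase and not G2 phase was highest. Listed pairs fell to 497, 824 and 464 at 3 counts and 413, 507 and 387 at 5 counts, and G1 phase then exceeded M phase. Pairs listed in all phases were 410 at 3 counts and 172 among repeat-free pairs. Without the 10 highest pairs, chromosome I held 37%, 36.2% and 34.3%, II 21.8%, 24% and 21.2%, and III 41.2%, 39.8% and 44.5%. With ends of 50 kb, ends held 45.5%, 38% and 48.2% and arms 35.1%, 36.9% and 33.4%. Where both fragments had to carry a class, CDS held 11.9%, 10.6% and 11.2%, LTR 2.94%, 2.39% and 3.53%, rRNA 15.5%, 10.9% and 21.2%, tRNA 0.865%, 1.23% and 1.03%, and misc_feature 42.3%, 44.3% and 38.4%. With summed length the rank correlation was 0.004, -0.001 and 0.001. Relative to the adjacent counts of each phase, 14 pairs (3.67%) were past 2-fold for G1 over G2 phase and 27 (7.09%) for G2 over G1. They were 47 (12.6%) for G2 over M and 27 (7.24%) for M over G2. For G1 over M they were 16 (4.73%) and for M over G1 9 (2.66%). The shares over non-adjacent pairs on this scale are given above. With 50 counts as the minimum, 1 of 289 pairs (0.346%) was past it for G1 over G2 and 83 (28.7%) for G2 over G1. The non-adjacent shares were 4.57% and 8.43%. Of 274 pairs, 201 (73.4%) were past it for G2 over M and 0 for M over G2, against 23.7% and 15.4%. Of 206 pairs, 49 (23.8%) were past it for G1 over M and 1 (0.485%) for M over G1, against 9.09% and 3.44%. With 25 bp repeats the repeated pairs held 91.9%, 87.7% and 89.6%. Listed repeat-free pairs were 13.6%, 30% and 12.8% from 14 repeated bases and 32.3%, 64.9% and 31% from 16. The cause of these shifts was not tested. Most repeat-free pairs had 0 to 2 counts, so that at this depth an unlisted pair is not shown to lack ligations, and intervals that cover counting error only are too narrow for comparing phases.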
